A study of Mus musculus with 2 samples.

Results

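Klf2, Klf4, Klf5, Zfp42, Tbx3, Esrrb, Nr5a2, Prdm14, Fgf4 and Dppa3 are genes of the naive pluripotent state of mouse embryonic stem cells (mESCs). They were taken by name, and all 10 could be measured, among 21784 protein-coding genes with a usable local level of 22225 annotated on mm9. Their transcripts start at 18 annotated transcription start sites (TSSs). Chromatin came from wt mESCs of the line E14, on the 129P2/OlaHsd background, at passage 26. It was precipitated with the anti-Msl1 antibody 3208 or with the anti-Nsl1 antibody 3130 and sequenced, with 1 library per antibody. Per the study's methods, the cells were grown with leukemia inhibitory factor (LIF) and serum on CD1 feeder cells, which were removed by a last passage without them, and the antibodies were raised in rabbits against the N-terminal part of Msl1 and the C-terminal part of Nsl1. The files hold DNA reads and no expression, so the state of the cells could not be checked against marker genes.

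Msl1 and Nsl1 are the scaffold subunits of 2 complexes, MSL and NSL, which both carry the histone H4 acetyltransferase Mof. Naive mESCs correspond to the epiblast of the blastocyst before implantation and are kept in that state by LIF acting through Stat3 and by a circuit of transcription factors around Oct4, Sox2 and Nanog. Most of these 10 genes are lowered when the cells pass to the primed state of the epiblast after implantation. The question of the study's design was where Msl1 and Nsl1 bind in mESCs, and here the reads of both were compared at and along these genes.

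The Msl1 library held 19483142 distinct nuclear reads of 50 bases and the Nsl1 library 24883001 of 36 bases. Every ratio below is the number of reads in a window over the number expected from the mean reads per kb between 20 and 100 kb beyond both ends of the gene in the same library, the local level. This level lay between 6.27 and 13.5 reads per kb for Msl1 and between 10.2 and 15.8 for Nsl1 at the 10 genes. Brackets give exact 95% Poisson intervals, or exact binomial intervals for the quotient of the Msl1 ratio to the Nsl1 ratio, and cover counting error only. With 1 library per antibody there was no replicate check and no test between them. The libraries also differed in read length, in library kit and in the share of reads that repeated a position, 18.3% for Msl1 and 4.56% for Nsl1, and these cannot be told apart from the antibody.

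Msl1 reads stood above the local level over most of these genes, and Nsl1 reads did so to a smaller extent, chiefly near the TSS. Within 500 bases of 1 TSS a gene, Msl1 reads were at least 2 times the local level at 7 of the 10 genes, against 46.9% of all protein-coding genes, and Nsl1 reads at 2 of 10, against 42.2%. The median ratio there was 3.86 for Msl1, beside 1.88 over all genes. For Nsl1 it was 1.64, close to the 1.75 over all genes. The contrast was wider past the TSS. From 500 to 2000 bases after it, 7 of 10 genes passed 2 times the local level for Msl1, against 37.0% of the 20021 genes that reach this distance, and 6 passed 5 times, against 3.30%. For Nsl1, 0 of 10 passed 2 times there, against 6.27%. The median over the 10 genes in this stretch was 6.17 for Msl1, beside 1.61 over all genes, and 1.32 for Nsl1, beside 1.17.

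The sequences just before the TSS are shown for the main TSS with the highest Msl1 ratio (Klf5), for those with the lowest Msl1 ratio (Nr5a2 TSS 1) and the lowest Nsl1 ratio (Dppa3), for the gene whose libraries differed most at its main TSS (Esrrb TSS 2), and for the inner start of Nr5a2, near which its highest Msl1 window lay. They were read from mm9, run 5′ to 3′ on the strand of the gene and end 1 base before the start, and capitals mark CpG dinucleotides. They lie at chr14:99697660-99697909 on the plus strand (Klf5), chr1:138857005-138857254 and chr1:138850208-138850457 on the minus strand (Nr5a2), chr6:122576178-122576427 on the plus strand (Dppa3) and chr12:87762344-87762593 on the plus strand (Esrrb).
Klf5: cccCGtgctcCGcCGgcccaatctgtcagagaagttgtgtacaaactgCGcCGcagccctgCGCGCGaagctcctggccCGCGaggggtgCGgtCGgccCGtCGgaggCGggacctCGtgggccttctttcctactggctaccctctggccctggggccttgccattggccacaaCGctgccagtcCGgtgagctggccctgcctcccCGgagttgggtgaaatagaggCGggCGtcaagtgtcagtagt
Nr5a2 TSS 1: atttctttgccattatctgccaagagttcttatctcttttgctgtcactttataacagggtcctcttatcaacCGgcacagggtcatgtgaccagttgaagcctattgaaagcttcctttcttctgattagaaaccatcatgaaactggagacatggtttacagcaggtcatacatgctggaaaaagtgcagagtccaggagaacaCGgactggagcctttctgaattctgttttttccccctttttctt
Nr5a2 TSS 2: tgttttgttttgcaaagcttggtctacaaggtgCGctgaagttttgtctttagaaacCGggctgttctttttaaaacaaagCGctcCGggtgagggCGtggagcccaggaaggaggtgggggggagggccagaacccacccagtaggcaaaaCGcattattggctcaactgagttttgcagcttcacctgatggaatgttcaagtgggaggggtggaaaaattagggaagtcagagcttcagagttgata
Dppa3: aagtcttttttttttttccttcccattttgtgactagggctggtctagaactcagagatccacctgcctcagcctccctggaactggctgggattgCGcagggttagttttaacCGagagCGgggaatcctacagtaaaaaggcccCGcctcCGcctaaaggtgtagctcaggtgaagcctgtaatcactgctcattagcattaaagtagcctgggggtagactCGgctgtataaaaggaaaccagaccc
Esrrb TSS 2: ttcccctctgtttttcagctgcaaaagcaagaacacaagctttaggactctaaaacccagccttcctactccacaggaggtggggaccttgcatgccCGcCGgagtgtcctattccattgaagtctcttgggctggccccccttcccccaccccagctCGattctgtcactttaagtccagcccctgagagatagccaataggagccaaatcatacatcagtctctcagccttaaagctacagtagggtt

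Klf5 held 21 CpGs in these 250 bases, Nr5a2 2 at its first and 6 at its inner TSS, Dppa3 6 and Esrrb 3. Over the 300 bases from 250 before to 50 after the start, the median of all 21780 promoters was 12 CpGs and the upper quartile 24. The main TSSs of Klf2, Klf4, Klf5, Tbx3 and Fgf4 were above that quartile, with 25 to 40 CpGs, and had Msl1 ratios of 4.47 to 8.56. Those of Zfp42, Esrrb, Nr5a2, Prdm14 and Dppa3, with 2 to 11 CpGs, had Msl1 ratios of 0.816 to 3.25, so the main TSSs of the groups did not overlap. Over all 18 starts they did, through Klf4 TSS 2, with 10 CpGs and a ratio of 11.6, whose window shares reads with that of the CpG-rich TSS 1. The Nsl1 ratios of the same groups, 1.21 to 2.62 and 0.549 to 1.90, overlapped. Over all genes the median Msl1 ratio was 3.09 with at least 24 CpGs and 1.52 with fewer. The Nsl1 medians went the same way, 2.48 and 1.54 over all genes, and 1.71 and 1.07 in the groups of main TSSs here. A higher median at CpG-rich starts was thus not particular to these genes or to Msl1. The Msl1 ranges over all genes, 0 to 26.9 and 0 to 106, overlapped. Ranges of 5588 and 16192 genes cannot be set against those of 5 genes each. They do not show whether the separation of the main TSSs here is particular to these genes.

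The binding motifs searched, on both strands of these 300 bases, were found at few of these starts. The TATA box word TATAAA was at 2 of the 18 TSSs. At Dppa3 it lay 20 bases before the start on the strand of the gene. At Nr5a2 TSS 1 it lay 202 bases before the start on the other strand. It was in 13.2% of all promoters, counted anywhere in these 300 bases and on either strand, so the count is of the word and not of its place. The Stat motif TTCNNNGAA, which reads the same on both strands, was at Esrrb TSS 1 and TSS 3 (7.84% of all promoters). Zfp42 alone held the octamer ATTTGCAT (1.79%), 186 bases before its start, and the Klf motif CCACACCC (3.56%), 75 bases before it. The Esrrb and Nr5a2 motif TCAAGGTCA was at 0 of 18 (0.335%).

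**Figure D1:**
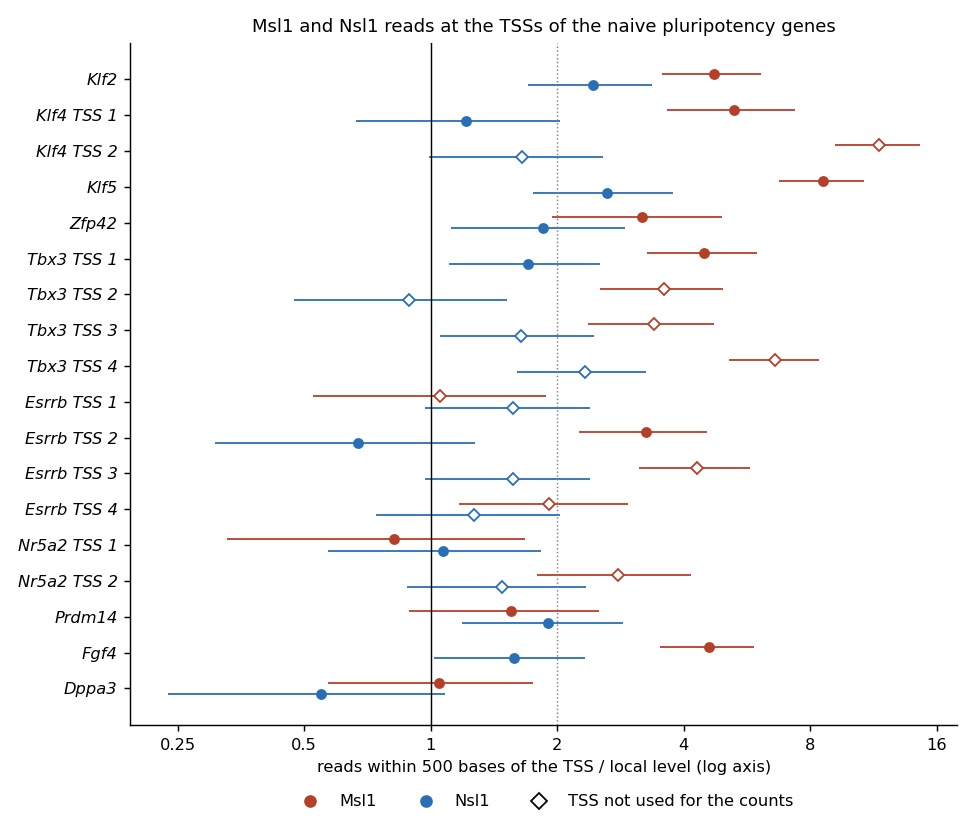
Reads within 500 bases of each of the 18 annotated TSSs over the local level (log axis) in the Msl1 library (red) and the Nsl1 library (blue). Filled circles are the TSS used for counts and open diamonds the others, bars are exact 95% Poisson intervals, and lines mark 1 and 2 times the local level. Msl1 lies highest at Klf4 TSS 2 (11.6), and no Nsl1 ratio passes 2.62.

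Klf2, Klf4 and Klf5 encode Krüppel-like zinc finger factors that bind CACCC and GC-rich sites, share targets with each other, and help to hold the naive state; Klf4 is also one of the factors used to reprogram somatic cells. Klf2 lies on chromosome 8 (74842932 to 74845555, plus strand). At its single TSS the Msl1 library had 56 reads, 4.71 times the local level (3.56 to 6.12), and the Nsl1 library 36 reads, 2.43 times (1.70 to 3.37). The quotient was 1.94 (1.25 to 3.03). With 1000 bases on each side the Nsl1 ratio was 1.59, no longer past 2. From 500 to 2000 bases after the TSS Msl1 was at 10.8 (9.31 to 12.4, 192 reads), more than at 99.9% of genes, while Nsl1 was at 1.49 (1.02 to 2.09). Msl1 was also high in the remaining 3′ part, at 5.68 (4.09 to 7.67), and was at 1.01 (0.599 to 1.60) from 2000 to 500 bases before the TSS. Further upstream, from 10000 to 2000 bases before the TSS, it was below the local level, at 0.611 (0.464 to 0.789). Msl1 reads thus stood above the local level from the start of this short gene to its end. Before the TSS 1 window passed 2, centred at -1251, with 13 Msl1 reads, 2.19 (1.17 to 3.74). In the 2 kb after the end of the gene Msl1 was at 1.85 (1.35 to 2.49). The Msl1 local level here was 11.9 reads per kb, against 7.37 over the whole genome, and the low upstream ratio is relative to it.

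Klf4 lies on chromosome 4 (55540013 to 55545347, minus strand), with 3 coding transcripts from the first TSS and 1 from a TSS inside the gene, close enough that the windows of both share reads. At the first TSS there were 34 Msl1 reads, a ratio of 5.27 (3.65 to 7.37), and 14 Nsl1 reads, 1.21 (0.662 to 2.03). The inner TSS had 75 Msl1 reads, 11.6 (9.15 to 14.6), the highest TSS ratio of all 18, and 19 Nsl1 reads, 1.64 (0.990 to 2.57). The quotient of the libraries was 4.35 (2.27 to 8.78) and 7.07 (4.23 to 12.4). Msl1 was at 11.3 (9.26 to 13.6) from 500 to 2000 bases and 5.85 (4.82 to 7.03) from 2000 to 5000 bases after the first TSS. Windows of 500 bases at or above 2 formed an unbroken Msl1 run of 6 kb, from 1500 bases before the TSS to 4500 after it.

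Klf5 on chromosome 14 (99697910 to 99712624, plus strand) had the highest Msl1 ratio at a main TSS, and its Nsl1 ratio and that of Klf2 were the highest, with overlapping intervals. Msl1 gave 74 reads, 8.56 (6.72 to 10.7), above 99.6% of genes, and Nsl1 29 reads, 2.62 (1.75 to 3.76), above 70.4% of genes. Its highest 500-base window, centred 749 bases after the TSS in the first intron, was the highest Msl1 window of all 10 genes, with 79 reads and a ratio of 18.3 (14.5 to 22.8). The Nsl1 library had 11 reads there, 1.99 (0.993 to 3.56). Msl1 was lower further along the gene, from 11.6 between 500 and 2000 bases to 4.86 between 2000 and 5000, 3.75 between 5000 and 10000 and 2.78 (2.29 to 3.34) in the rest. Nsl1 was highest just before the TSS, with 19 reads in the 500 bases that end there, 3.44 (2.07 to 5.37). The run of Msl1 windows at or above 2 was the longest of the 10 genes, 12 kb. The middle 200 bases of the highest window, chr14:99698560-99698759 on the plus strand of mm9, are shown because no other window of these genes held as much Msl1; they hold 16 CpGs, in capitals.
Klf5 intron 1: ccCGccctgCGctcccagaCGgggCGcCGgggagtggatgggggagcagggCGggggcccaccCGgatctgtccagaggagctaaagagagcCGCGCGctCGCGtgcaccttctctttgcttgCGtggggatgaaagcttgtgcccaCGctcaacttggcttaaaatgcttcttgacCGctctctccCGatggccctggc

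**Figure D2:**
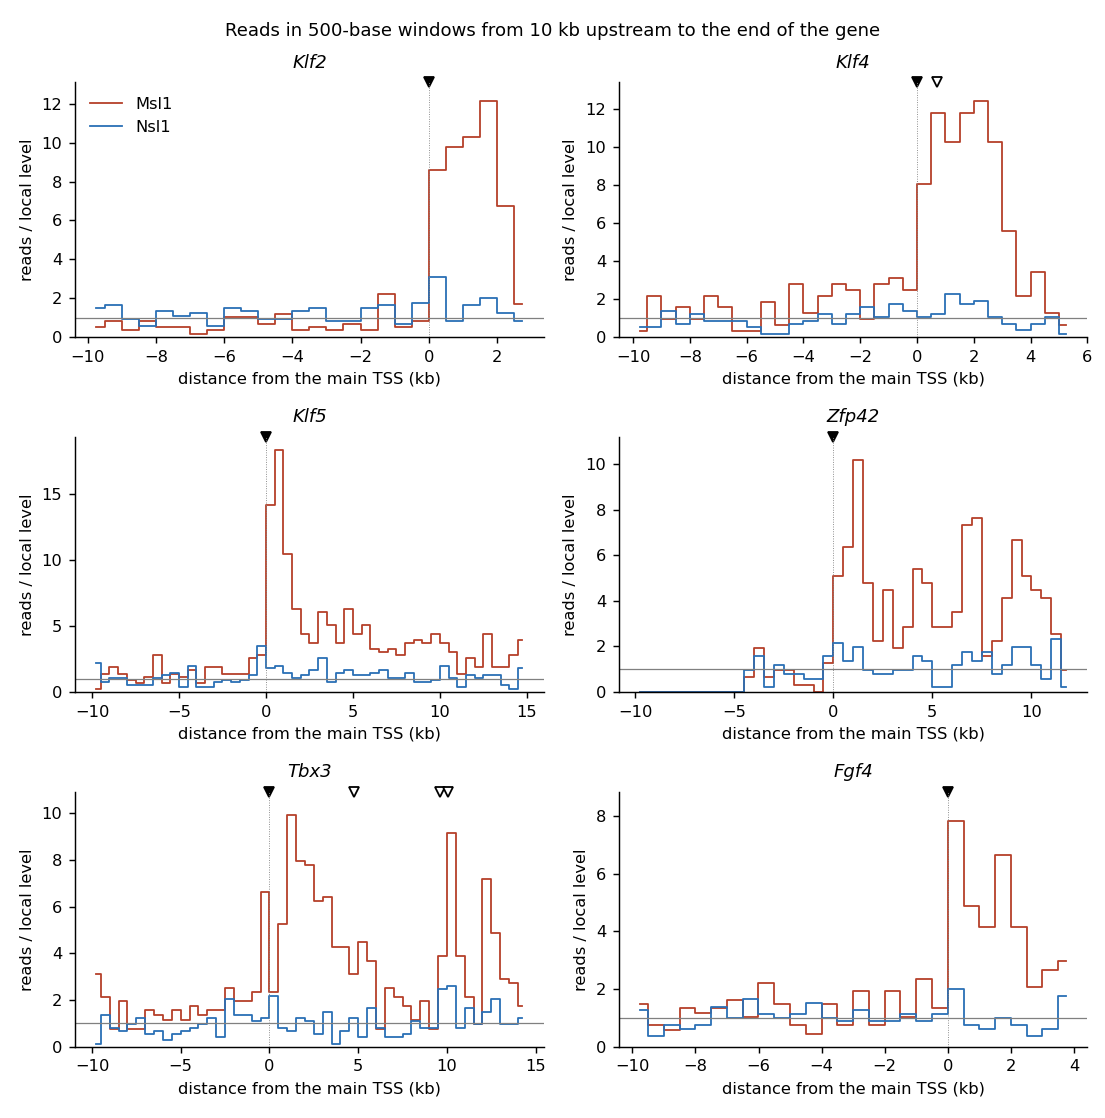
Msl1 (red) and Nsl1 (blue) reads over the local level in 500-base windows against distance from the main TSS in kb, at Klf2, Klf4, Klf5, Zfp42, Tbx3 and Fgf4. Filled triangles mark the main TSS, open triangles other TSSs, and the grey line the local level. Msl1 lies above the local level from the TSS into the gene, with its highest window at Klf5 (18.3), while the highest Nsl1 window is at 3.44.

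Tbx3, a T-box factor that sustains Nanog and the naive circuit, lies on chromosome 5 (120120678 to 120134733, plus strand) and has 4 annotated TSSs. Its main TSS had 46 Msl1 reads, 4.47 (3.27 to 5.96), and 25 Nsl1 reads, 1.71 (1.11 to 2.52). At the 3 inner TSSs Msl1 was at 3.60, 3.40 and 6.61, and Nsl1 at 0.888, 1.64 and 2.32; the windows of the last 2 share reads. The last one was the only Tbx3 start at which Nsl1 passed 2. Msl1 formed separate high stretches along this gene, at 7.72 (6.39 to 9.23) from 500 to 2000 bases, 5.35 from 2000 to 5000, 2.31 from 5000 to 10000 and again 4.25 (3.64 to 4.92) beyond 10000 bases. In the highest Msl1 window, an exonic one centred 1249 bases after the TSS, Msl1 was at 9.92 (7.39 to 13.0, 51 reads) and Nsl1 at 0.684 (0.222 to 1.60, 5 reads).

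Esrrb and Nr5a2 (also called Lrh1) encode orphan nuclear receptors that bind similar sites and act on Oct4 and Nanog. Both are over 100 kb long, and in both the Msl1 reads lay at inner rather than first starts. Esrrb (chromosome 12, 87702067 to 87862578, plus strand) had 11 Msl1 reads at TSS 1, 1.05 (0.525 to 1.88), and 21 Nsl1 reads, 1.57 (0.971 to 2.40). At TSS 2, where 4 of its 6 coding transcripts start, Msl1 had 34 reads, 3.25 (2.25 to 4.54), and Nsl1 9 reads, 0.672 (0.307 to 1.28). This was the largest quotient of a main TSS at 4.84 (2.27 to 11.5), with an interval that overlapped that of Klf4, 4.35 (2.27 to 8.78). With a local level from 20 to 100 kb on both sides of Esrrb TSS 2, which then lies partly in the gene, its Msl1 ratio was 1.97 and no longer past 2. TSS 3 had 45 Msl1 reads, 4.30 (3.14 to 5.76), and 21 Nsl1 reads, 1.57. At TSS 4 Msl1 was at 1.91 (1.17 to 2.95) and Nsl1 at 1.27 (0.740 to 2.03). The Msl1 intervals of TSS 2 and TSS 3 lay above that of TSS 1, without overlap, while that of TSS 4 overlapped it.

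After TSS 2 of Esrrb Msl1 was at 2.62 (1.88 to 3.55) from 500 to 2000 bases, 1.34 (0.966 to 1.81) up to 5000, 1.47 (1.16 to 1.84) up to 10000 and 1.27 (1.07 to 1.51) up to 20000 bases. It was at 2.66 (2.52 to 2.80, 1389 reads) from 50000 bases to the gene's end, more than at 99.8% of the 4560 genes that reach this distance, and there Nsl1 was at 1.13 (1.05 to 1.21). The highest Msl1 window lay 1749 bases after TSS 3, in an intron, with 42 reads, 8.04 (5.79 to 10.9), against 6 Nsl1 reads, 0.897; with windows of 1000 bases the highest was at 4.59. An unbroken run of 7 kb of windows at or above 2 lay from 49972 to 56972 bases after TSS 2, just past TSS 3. Between TSS 1 and TSS 2, more than 1 kb before TSS 2, no window reached 3 in either library.

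Nr5a2 (chromosome 1, 138740161 to 138857004, minus strand) showed the same order. Its first TSS had 7 Msl1 reads, 0.816 (0.328 to 1.68), the lowest of the 18 TSSs, and 13 Nsl1 reads, 1.07 (0.569 to 1.83). The inner TSS had 24 Msl1 reads, 2.80 (1.79 to 4.16), and 18 Nsl1 reads, 1.48 (0.877 to 2.34). The Msl1 intervals of the 2 starts did not overlap and the Nsl1 intervals did. From 500 to 2000 bases after the first TSS Msl1 was at 0.777 (0.373 to 1.43), and in the zone from 5000 to 10000 bases, which holds the inner TSS, at 2.68 (2.21 to 3.22). It was at 2.50 (2.17 to 2.85) up to 20000 bases, 1.73 (1.57 to 1.89) up to 50000 and 1.16 (1.06 to 1.27) up to 100000 bases. The highest window was 453 bases after the inner TSS, with 26 Msl1 reads, 6.06 (3.96 to 8.89), and 12 Nsl1 reads, 1.98. Per the annotation each of these starts has 1 coding transcript, so the count of genes above took the first, at which Nr5a2 was not past 2.

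**Figure D3:**
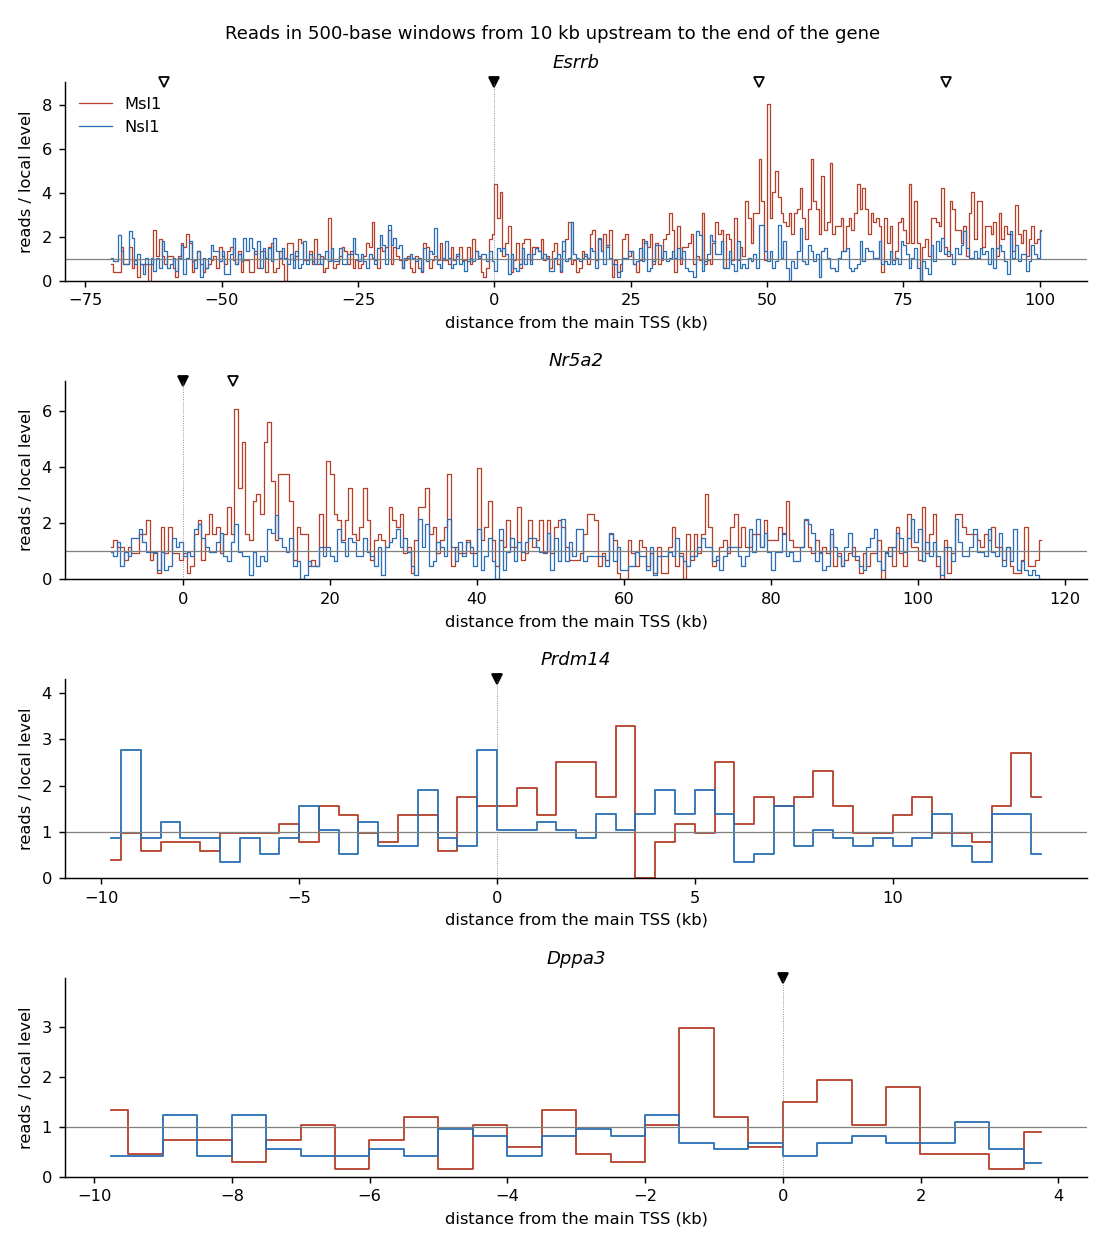
Msl1 (red) and Nsl1 (blue) reads over the local level in 500-base windows against distance from the main TSS in kb, at Esrrb, Nr5a2, Prdm14 and Dppa3, with TSSs marked as triangles (filled: main TSS). Msl1 is highest after TSS 3 of Esrrb (8.04) and after the inner TSS of Nr5a2 (6.06), with highest windows of 3.30 at Prdm14 and 2.99 at Dppa3.

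Fgf4 encodes the growth factor that mESCs secrete and that, through Erk, readies them to leave the naive state. On chromosome 7 (152047291 to 152051148, plus strand) its TSS had 62 Msl1 reads, 4.58 (3.51 to 5.88), and 25 Nsl1 reads, 1.58 (1.02 to 2.33), a quotient of 2.91 whose interval lay above 1. Msl1 was at 5.23 (4.28 to 6.33) from 500 to 2000 bases and at 3.03 (2.39 to 3.79) from there to the end of the gene, and the Nsl1 values in the same stretches were 0.842 (0.514 to 1.30) and 0.748 (0.469 to 1.13). The run of Msl1 windows at or above 2 was 4 kb long and began at the TSS. Prdm14 represses the Fgf receptor pathway and the de novo DNA methyltransferases in naive cells. At its TSS on chromosome 1 (gene at 13103538 to 13117244, minus strand) Msl1 had 16 reads, 1.55 (0.885 to 2.52), and Nsl1 22 reads, 1.90 (1.19 to 2.87), and the quotient of 0.816 (0.401 to 1.63) spanned 1. Beyond 500 bases the Msl1 ratios of the distance zones lay between 1.55 and 1.94, while single 500-base windows ran from 0 to 3.30. The Msl1 gene body ratio was 1.61 (1.40 to 1.83), and Nsl1 was at 1.05 (0.896 to 1.23). This body ratio was low beside most of the other 9 genes, though above 82.7% of all genes, and Prdm14 had 1 window past 3.

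Zfp42 (Rex1), a zinc finger gene used as the classic marker of naive cells, lies on chromosome 8 (44380422 to 44392363, minus strand). Its TSS had 20 Msl1 reads, 3.18 (1.94 to 4.92), and 19 Nsl1 reads, 1.85 (1.11 to 2.89), and the quotient of 1.72 (0.871 to 3.41) spanned 1. Inside the gene Msl1 was at 7.12 (5.52 to 9.04) from 500 to 2000 bases, 3.61 (2.81 to 4.58) up to 5000 and 4.40 (3.70 to 5.20) up to 10000, and Nsl1 at 1.43, 1.07 and 1.23. Upstream of it, from 10 to 1 kb before the TSS, both libraries were low, 0.319 for Msl1 and 0.336 for Nsl1. From 10 to 4.5 kb upstream there were 0 reads in both libraries, and there 92.3% of the 50-base and 94.5% of the 36-base words of mm9 occur again elsewhere. From 4.5 to 1 kb upstream, where 4.17% and 5.71% of words do, there were 18 Msl1 and 31 Nsl1 reads. Just before the TSS, from 2000 to 500 bases, 2 Msl1 reads gave 0.212 (0.0257 to 0.768), so Msl1 was below the local level before the start and above it behind. Dppa3 (Stella) protects the maternal genome from demethylation after fertilisation and marks naive cells and germ cells. At its TSS on chromosome 6 (gene at 122576428 to 122580290, plus strand) there were 14 Msl1 reads, 1.04 (0.571 to 1.75), and 8 Nsl1 reads, 0.549 (0.237 to 1.08), the lowest Nsl1 ratio of the 18 TSSs. Its gene body was at 0.888 (0.634 to 1.21) for Msl1 and 0.715 (0.498 to 0.994) for Nsl1, and 8.13% of the 50-base and 13.8% of the 36-base words of the gene occur elsewhere in mm9, as do 7.09% and 11.3% at its TSS and 20.4% and 34.5% in its exons. The shares of the gene were 11.8% and 17.3% at Zfp42 and 10.8% and 15.4% at Klf4, whose Msl1 gene body ratios were 4.32 and 7.19; the part of these repeats in the ratios was not tested. The highest Msl1 window of Dppa3 was centred at -1251 from the TSS, with 20 reads, 2.99 (1.82 to 4.61), against 5 Nsl1 reads. The local level at Dppa3 was 13.4 Msl1 and 14.6 Nsl1 reads per kb, against 7.37 and 9.42 over the whole genome. The stretches it was taken from reach 6 other coding genes, Nanog among them. The low ratios of Dppa3 are relative to this level.

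Over whole gene bodies, from 500 bases after the main TSS to the end of the gene, Msl1 ratios ran from 0.888 at Dppa3 to 9.28 at Klf2 (8.13 to 10.5) and Nsl1 ratios from 0.715 to 1.37. Among the 9 members of at least 3 kb, 6 passed 2 for Msl1, against 6.98% of such genes, and 0 for Nsl1, against 0.938%. The Msl1 order was Klf2, Klf4 (7.19; 6.28 to 8.20), Klf5 (4.50; 4.13 to 4.89), Zfp42 (4.32; 3.85 to 4.83), Tbx3 (4.16; 3.83 to 4.51), Fgf4 (4.01; 3.45 to 4.64), Esrrb (2.13; 2.04 to 2.22), Prdm14 (1.61), Nr5a2 (1.50; 1.43 to 1.58) and Dppa3. The intervals of Klf2 and Klf4 overlapped, as did those of Klf5, Zfp42, Tbx3 and Fgf4 and those of Prdm14 and Nr5a2. These intervals alone thus did not order those neighbours, and no direct quotient between genes was taken. The order also rests on local levels that differed between genes, from 6.27 reads per kb at Zfp42 and 6.44 at Klf4 to 13.4 at Dppa3 and 13.5 at Fgf4. The brackets treat these levels as exact, and the order was not checked under other local levels. The median over the 10 genes, with Klf2 of under 3 kb included, was 4.09 for Msl1 and 1.10 for Nsl1. Over all genes of at least 3 kb it was 1.12 and 1.02. The quotient of the libraries was above 1 beyond its interval in 9 of 10 gene bodies, and in 8 of the 9 genes of at least 3 kb, against 37.3% of all such genes. In the 9 gene bodies with an interval above 1, of any length, it ran from 1.46 (1.36 to 1.57) at Nr5a2 to 6.77 (4.88 to 9.61) at Klf2. At Dppa3 it was 1.24 (0.770 to 2.01). At the main TSSs it was above 1 beyond its interval in 6 of 10, against 12.2% of all genes.

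**Figure D4:**
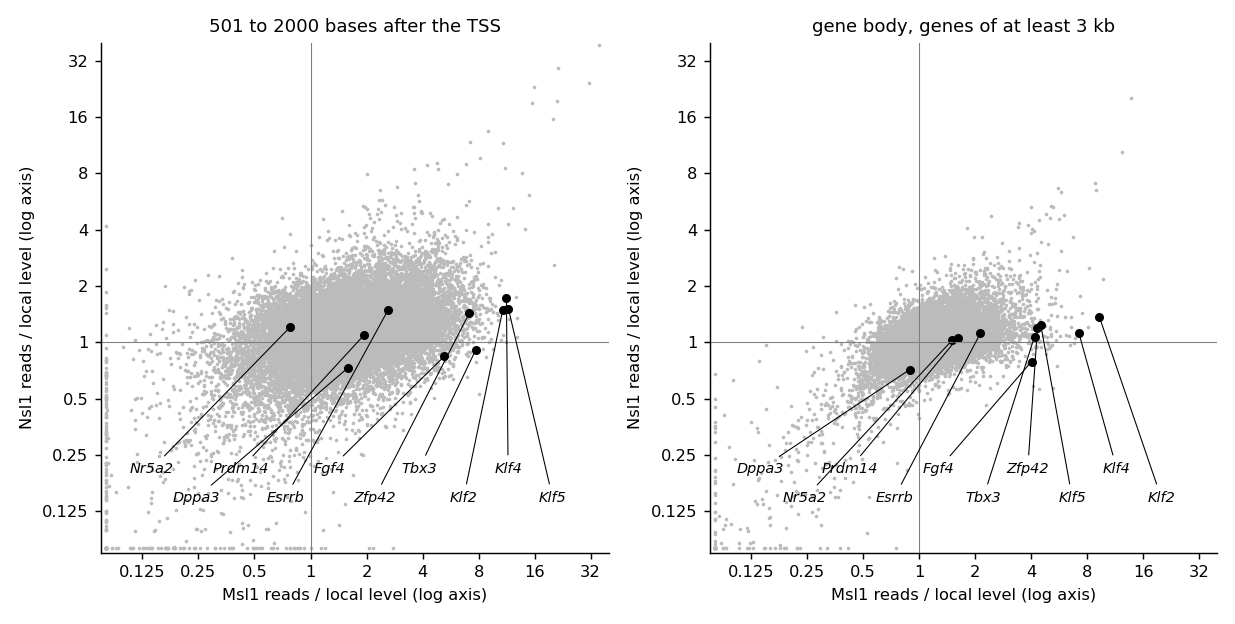
Msl1 against Nsl1 reads over the local level (both axes log) for each protein-coding gene (grey) and the 10 naive pluripotency genes (black), from 500 to 2000 bases after the TSS without regard to the end of the gene (left) and in the gene body (right; Klf2, of 2.6 kb, is shown too). Ratios under 0.08 are drawn at 0.08. In the gene body Klf2, Klf4, Klf5, Zfp42, Tbx3 and Fgf4 lie at Msl1 ratios of 4.01 to 9.28 and Nsl1 ratios of 0.790 to 1.37.

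Of the 900 windows of 500 bases from 10 kb upstream of the first TSS to the end of these genes, 135 reached 3 times the local level for Msl1, against 2.79% of windows at the loci of all protein-coding genes. For Nsl1 there were 2 of 900, against 1.30%, and these were the first window after the Klf2 TSS and the one that ends at the Klf5 TSS. Esrrb held 41 of its 342 windows past 3 for Msl1, Klf5 23 of 50, Tbx3 18 of 49, Nr5a2 18 of 254, Zfp42 15 of 44, Klf4 9 of 31, Klf2 5 of 26, Fgf4 5 of 28, Prdm14 1 of 48 and Dppa3 0 of 28. More than 1 kb from any annotated TSS of the gene there were 97 such Msl1 windows of 814, against 1.86% of such windows over all genes, and 0 Nsl1 windows, against 0.789%. From 10 to 1 kb upstream the median ratio was 1.13 for Msl1 and 0.953 for Nsl1, beside 0.972 and 1.01 over all genes. In the 2 kb after the end of the gene Msl1 was between 0.709 at Dppa3 and 3.03 at Zfp42, and Nsl1 between 0.345 at Prdm14 and 2.93 (2.23 to 3.77) at Zfp42. At Klf2 Nsl1 was at 2.50 (1.97 to 3.14) there and Msl1 at 1.85 (1.35 to 2.49). Msl1 passed 2 in this stretch at 3 genes and Nsl1 at 2, and the stretch was not measured over all genes.

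The reads were spread over exons and introns. The quotient of reads per kb in exons to introns had a median of 1.09 for Msl1 and 1.20 for Nsl1 over the 10 genes, beside 1.20 and 1.27 over all genes. It was above 1 beyond its interval for Msl1 at Klf5 (1.78; 1.44 to 2.18, and 1.33 without the first 1 kb after each TSS), Tbx3 (1.64), Esrrb (1.44) and Prdm14 (1.42), and for Nsl1 at Klf5 and Tbx3. The share of all genes above 1 by the same rule was not counted, so the named genes are not shown to stand out. Across the 102 inner exon borders 185 Msl1 reads ran from exon into intron, where 183 were expected from the reads beside the borders, a quotient of 1.01 (0.871 to 1.17). For Nsl1 there were 65, where 57.5 were expected, 1.13 (0.873 to 1.44), so reads ran across exon borders at the level of their surroundings in both libraries.

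Other gene lists of the pluripotent and early epiblast states gave lower medians along the gene. Msl1 gene body medians were 2.84 for the 4 core factors (Pou5f1, Nanog, Sox2, Sall4), 2.42 for the 9 of 11 other genes of the mESC state with a measurable body, 2.06 for 8 primed epiblast genes, 1.55 for 25 paralogs of the 10 genes, 1.49 for 5 genes of the LIF receptor and Stat3 and 1.00 for 11 of the 12 genes of differentiated tissues, beside 4.09 here. Single genes of these lists lay above 4.09: Sox2 (8.25), Nr0b1 (5.51), Socs3 (5.43), Sox3 (4.95), Pou3f1 (4.38) and Tdgf1 (4.28). The other listed genes lay below it, so a high Msl1 gene body ratio was not particular to the 10 genes. The Nsl1 gene body medians of these lists lay between 0.964 and 1.27. At the TSS the lists were closer, with Msl1 medians of 2.43, 2.59, 3.32, 2.69, 3.57 and 1.03 in the same order, beside 3.86, and Nsl1 medians between 0.971 and 1.89, beside 1.64. These lists were compared by their values, without a test and without regard to gene length.

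At the TSS of Pou5f1 (Oct4) Msl1 was at 4.12 (2.82 to 5.81) and Nsl1 at 1.55. Nanog was at 2.21 and 2.38, the highest Nsl1 ratio of the core factors, Sall4 at 2.66 and 2.24, and Sox2 at 1.91 and 1.33, with a Sox2 gene body ratio for Msl1 of 8.25. Of the core list 3 of 4 genes passed 2 for Msl1 and 2 for Nsl1, beside 46.9% and 42.2% of all genes. In the LIF list, with 4 and 2 of 5 past 2, Lifr, the receptor itself, was at 4.61 (3.33 to 6.21) and 2.70, Stat3, its transcription factor, at 4.45 and 2.66, and Il6st, the co-receptor, at 1.52 and 0.708. Among the other mESC genes, with 7 and 2 of 11 past 2, the nuclear receptor Nr0b1 was highest, at 5.57 (3.04 to 9.34) for Msl1 and 2.90 for Nsl1, followed for Msl1 by Tcfcp2l1 at 4.93, and Fbxo15 was lowest at 1.44.

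The primed epiblast genes passed 2 for Msl1 in 7 of 8, against 46.9% of all genes, and for Nsl1 in 0 of 8, against 42.2%. Sox3 was at 5.59 (3.46 to 8.54) for Msl1 with 2 Nsl1 reads, 0.412, the de novo DNA methyltransferase gene Dnmt3b at 4.56 and 1.74, and Pou3f1 at 1.67 and 1.27. Paralogs passed 2 in 19 of 25 for Msl1 and 7 of 25 for Nsl1, beside the same shares of all genes. Klf13 had the highest Msl1 ratio of them, 7.63 (5.66 to 10.1), with Nsl1 at 3.51, followed by Klf14 at 5.68, and Klf1, the erythroid factor, the lowest, 0.704. Klf10 had the highest Nsl1 ratio of any listed gene, 132 reads and 9.42 (7.88 to 11.2), with Msl1 at 5.17. Of the genes of differentiated tissues 3 of 12 passed 2 for Msl1 and 0 for Nsl1, beside 46.9% and 42.2% of all genes. Myod1, the muscle regulator, was highest for Msl1 at 3.37, followed by Cdx2 at 2.73, Actc1 was lowest at 0.641, and Krt5 had the highest Nsl1 ratio of that list, 1.99.

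**Figure D5:**
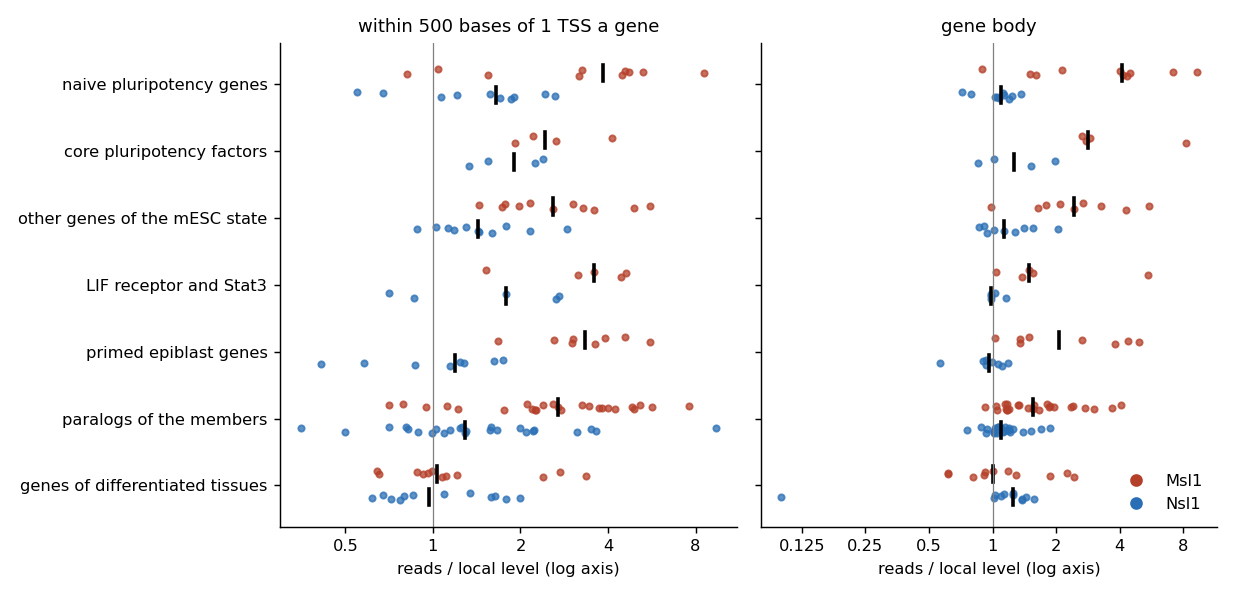
Reads over the local level (log axis) for the genes of each list, at 1 TSS a gene (left) and in the gene body (right), in the Msl1 library (red) and the Nsl1 library (blue), with each point a gene and black bars the medians. Ratios under 0.1 are drawn at 0.1. The naive pluripotency genes have the highest Msl1 median along the gene body (4.09), and their Nsl1 median there is 1.10.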

How the data were processed

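Single-end reads of 1 anti-Msl1 and 1 anti-Nsl1 ChIP-seq library were aligned to mm9 by the authors, whose processing notes name CASAVA 1.8.2 and Bowtie 0.12.7; per the study's methods unique reads were used. The authors deposited 1 line per read, with position, strand and a score that is the same on every line and carries no measurement; repeated reads were still present and no Input was used here. From these, 1 read per position and strand was kept on nuclear chromosomes and its 5′ end moved by 109 (Msl1) or 67 (Nsl1) bases, from each library's strand cross-correlation on chromosomes 16, 17 and 19. TSSs, exons and genes came from GENCODE for mm9, in a release that differs from the study's. The TSS with most coding transcripts, starts within 500 bases joined, stood for a gene in counts. Genes with a local level under 0.5 reads per kb were left out. All members were named at every TSS; of the other lists, the 2 highest and the lowest gene for Msl1 and the highest for Nsl1. The members and lists were chosen with earlier results of these data known. Fixed distance zones, the CpG split and repeated words were added after the data were seen. Python 3.11.15, numpy 2.4.6, pandas 2.3.3, scipy 1.17.1, numba 0.67.0 and matplotlib 3.10.9 were used, and the counting was tested on simulated data.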

Additional observations from a re-analysis of the deposited data

How the results depend on the processing

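No paired analysis was possible because each antibody has 1 library, and for the same reason no replicate could be left out. The other planned settings were a wider TSS window, all reads kept, 5 other local levels, other read shifts, another choice of TSS, other folds, and other gene body starts and window lengths, and the exon to intron quotient without the first 1 kb after each TSS. The number of naive pluripotency genes past 2 for Msl1 at the TSS was between 6 and 8, with Esrrb at 1.97 and lost when the level was taken around its TSS, and the median Msl1 TSS ratio between 2.84 and 4.61. The number past 2 for Nsl1, reported as 2, was 1 with a window of 1000 bases on each side, 6 with the whole-genome level, and 0 with a fold of 3 or with the lower end of the interval above 2. With the whole-genome level the median upstream ratio was 1.45 for Msl1 and 1.29 for Nsl1 and the median Nsl1 gene body ratio 1.36. The same level put the Msl1 TSS ratio of Klf2 at 7.59, of Fgf4 at 8.40, of Dppa3 at 1.90 and of Prdm14 at 2.17, past 2. It put the Nsl1 TSS ratio of Klf2 at 3.82, above that of Klf5 at 3.08. The median Msl1 gene body ratio was 3.34 when the body began 2000 bases after the TSS. At its most upstream coding TSS Esrrb had a quotient of Msl1 to Nsl1 of 0.670 (0.292 to 1.45). This value is on the other side of 1 from the 4.84 at its main TSS, but its interval spans 1. Of 480 values of single genes under these settings, 454 stayed within the interval of the reported value, 25 left it and 1 was this Esrrb value. The depth, 7 to 75 Msl1 and 8 to 36 Nsl1 reads at a TSS, limits what single TSSs can show, and without an Input or a second library the spread between samples is unknown.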
